A study of Zea mays with 18 samples.

Results

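Transcripts of 6 maize genes that stand for the core of C4 photosynthesis were followed through a cold treatment of seedling leaves. The genes were chosen by identifier from the deposited table of 50118 genes: phosphoenolpyruvate (PEP) carboxylase1, pyruvate, orthophosphate dikinase1, a carbonic anhydrase, NADP malic enzyme3 and the Rubisco small subunits 1 and 2. All 6 genes passed the filter on low values that left 23141 genes for testing. The leaves came from a zmzfp69 line, titled a mutant in the B73 background and called a knock-down in other label fields, and from the inbred line B73, its wild-type control. ZmZFP69 is a zinc finger transcription factor. Seedlings of both genotypes grew under 16 h of daily light at 25 °C, and leaves were taken after 0, 24 and 48 h at 4 °C. The 4 °C label is attached to the 0 h samples too. Each of the 6 groups held 3 libraries, described in the labels as biological replicates of 50 seedlings each, so every library is a pool of plants. The level of ZmZFP69 itself is not given here, so the genotypes rest on the labels alone.

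In the C4 leaf, carbonic anhydrase turns CO2 into bicarbonate in the mesophyll cells, and PEP carboxylase fixes that bicarbonate into a C4 acid. The acid moves into the bundle sheath, where in maize NADP malic enzyme releases the CO2 again beside Rubisco, and pyruvate, orthophosphate dikinase regenerates PEP in the mesophyll. Maize is a plant of warm climates, and Rubisco and pyruvate, orthophosphate dikinase are both known as steps that can limit its photosynthesis in the cold.

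Levels are FPKM, that is, fragments divided by the length of the gene and by a library total that the submitters' processing had set. The libraries held 14.8 to 19.1 M reads, and that total was 0.672 to 1.504 times the reads. Changes are log2 differences of FPKM + 1 from limma, with p-values adjusted by the Benjamini-Hochberg method over all genes tested, and a gene passed when its adjusted p was under 0.05. Where FPKM were rescaled to each library's own reads, the median of all genes at 48 h minus 0 h, averaged over the genotypes, was -0.55, against -0.05 in the deposited scaling, so this rescaling lowers 48 h changes as a whole. Summed chlorophyll a-b binding protein transcripts, which mark green leaf tissue, ranged from 3007 to 45308 FPKM over the libraries, with 5 of 41 such genes at 0 in all of them. The lowest sum was in a B73 library at 24 h and the highest in a B73 library at 0 h. In bulk leaves, fewer cells of a type and less RNA per cell cannot be told apart.

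Of the 6 genes, 5 were among the most abundant transcripts of the leaf. PEP carboxylase1, pyruvate, orthophosphate dikinase1, NADP malic enzyme3 and both small subunits ranked between 1 and 58 among all genes in every library, and the 6 genes together took 2.53 to 9.14% of the reads. Averaged over the 18 libraries, the level per length was 5773 FPKM for PEP carboxylase1, 4822 FPKM for pyruvate, orthophosphate dikinase1, 4432 FPKM for small subunit2, 3796 FPKM for small subunit1 and 3633 FPKM for NADP malic enzyme3. The carbonic anhydrase averaged 93.3 FPKM and ranked between 342 and 17136. It stands apart from the other 5 in level and in how it changed.

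**Figure D1:**
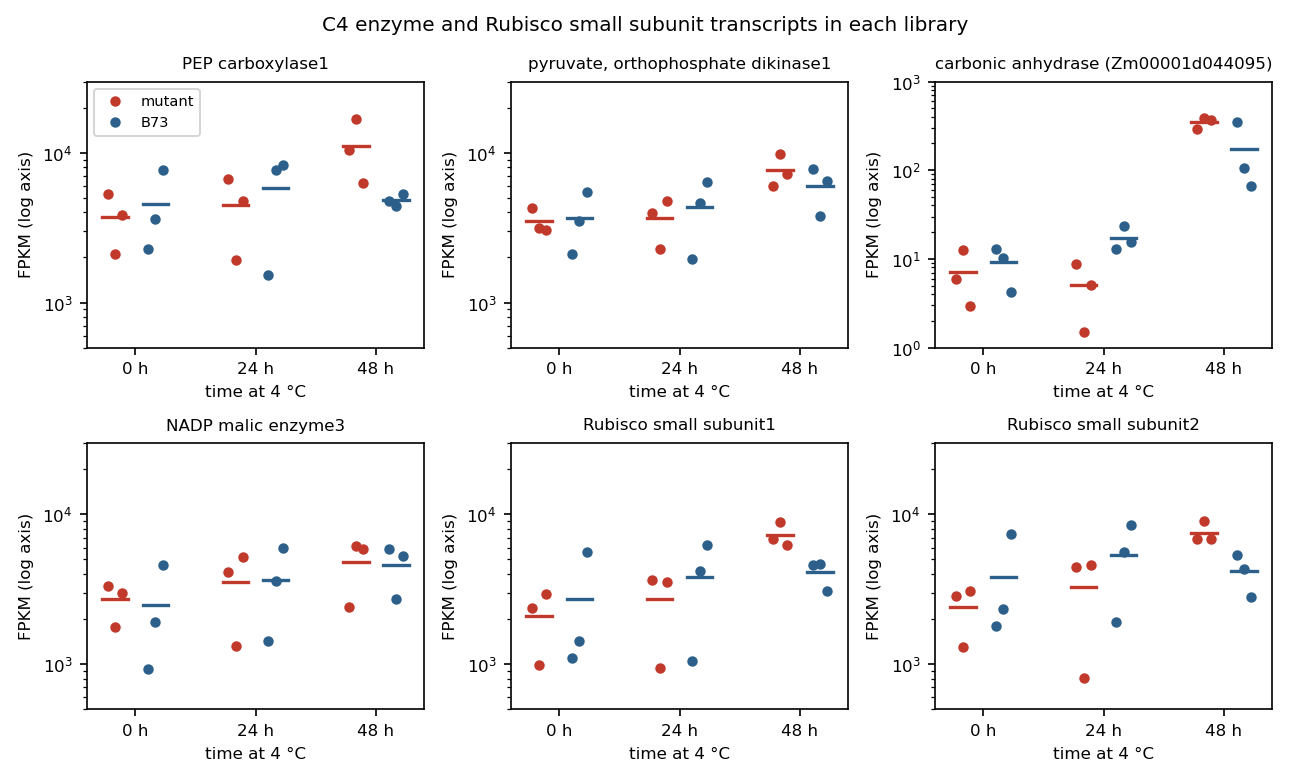
FPKM (log axis) of the 6 genes in each library after 0, 24 and 48 h at 4 °C, with zmzfp69 mutant libraries in red, B73 libraries in blue and a line at each group mean; the carbonic anhydrase has an axis of its own. The carbonic anhydrase is at 67.1 FPKM or more in all 48 h libraries and at 23.6 FPKM or less in all others. Groups of the other 5 genes largely overlap, apart from the mutant at 48 h. Its libraries lie above all mutant 0 h libraries for PEP carboxylase1, pyruvate, orthophosphate dikinase1 and both small subunits. They lie above all B73 48 h libraries for PEP carboxylase1 and both small subunits.

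The carbonic anhydrase gene, Zm00001d044095 (chromosome 3, 219031166 to 219034215, minus strand), rose strongly in both genotypes between 24 and 48 h. It has no gene name in the deposited table, which describes it as a chloroplastic carbonic anhydrase. In the mutant its level was 5.95, 12.5 and 2.92 FPKM at 0 h, 8.81, 1.505 and 5.04 FPKM at 24 h, and 294, 386 and 364 FPKM at 48 h. In B73 it was 12.8, 10.3 and 4.22 FPKM at 0 h, 12.9, 23.6 and 15.4 FPKM at 24 h, and 348, 105 and 67.1 FPKM at 48 h. All 48 h libraries lay above all 0 h and 24 h libraries in both genotypes. The lowest library held 42 reads of the gene and the highest 5136, so counting error is small beside the spread between libraries at 48 h and larger in the lowest libraries.

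At 48 h against 0 h the log2 change of the carbonic anhydrase was 5.60 ± 0.62 in the mutant (SE, limma, n = 3 each, adjusted p = 2.28e-05) and 3.86 ± 0.62 in B73 (adjusted p = 0.00069). On that scale these are 48.4-fold in the mutant and 14.5-fold in B73. Of all tested genes, 36.5% passed in this comparison in the mutant and 23.2% in B73, and the carbonic anhydrase was the only one of the 6 genes to pass in either. Against 24 h, the 48 h change was 6.03 ± 0.62 in the mutant (adjusted p = 5.87e-05), where 22.5% of all genes passed. It was 2.93 ± 0.62 in B73 (limma adjusted p = 0.0179), where 3.48% of all genes passed. The B73 call did not hold without B73 24 h replicate 3 (2.87, limma adjusted p = 0.0780), without B73 48 h replicate 1 (2.25, limma adjusted p = 0.0891) or in a fit of only the 6 libraries compared (2.93, limma adjusted p = 0.159). No other gene of the 6 passed at 48 h against 24 h in either genotype.

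At 24 h the carbonic anhydrase had not passed in either genotype. Its change from 0 h was -0.44 ± 0.62 in the mutant (limma adjusted p = 0.697), a value that turned to 0.02 without mutant 0 h replicate 2, to 0.10 without mutant 24 h replicate 2 and to 0.19 with array weights. In B73 the change was 0.93 ± 0.62 (limma adjusted p = 0.396), although the 3 libraries at 24 h all lay above the 3 at 0 h, by a margin of 12.9 against 12.8 FPKM, as 17.3% of all tested genes did. With array weights this B73 change was 0.92 and passed (limma adjusted p = 0.0237), in a setting where 12553 of all tested genes passed, against 2164 without weights. Between genotypes, the 3 mutant libraries at 24 h lay below the 3 B73 libraries, with a difference of -1.75 ± 0.62 (limma adjusted p = 0.282, unadjusted p = 0.0121). All 3 libraries were lower in the mutant at 24 h for 6.90% of all tested genes. At 48 h the mutant averaged 348 ± 47.8 FPKM and B73 173 ± 152 FPKM (SD, n = 3 each), and the groups overlapped because B73 replicate 1 lay within the mutant's range. That difference was 1.35 ± 0.62 (limma adjusted p = 0.341, unadjusted p = 0.0437), with an interval of 0.04 to 2.66 at 95% confidence before adjustment. The genotype difference in the 48 h change was 1.74 ± 0.87 and did not pass (limma adjusted p = 0.685).

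Ordered by mean, the carbonic anhydrase ran from the mutant at 48 h through B73 at 48 h, B73 at 24 h, B73 at 0 h and the mutant at 0 h to the mutant at 24 h. Of these neighbours, B73 at 48 h and B73 at 24 h were separated in all libraries, and B73 at 24 h and at 0 h by the narrow margin given above. The mutant at 48 h overlapped B73 at 48 h, and the 3 lowest groups overlapped one another.

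The label of a core C4 enzyme does not match the level of this carbonic anhydrase before the cold. By the name and description patterns used here, the carbonic anhydrase family had 20 genes, and 15 were tested. Zm00001d044095 was the fifth of them by mean level. The most abundant was carbonic anhydrase1 (Zm00001d044099, chromosome 3, 219075378 to 219082694), with a mean of 2170 FPKM, whose start lies 41162 bases beyond the end of Zm00001d044095. Carbonic anhydrase3 (Zm00001d044096, chromosome 3, 219038137 to 219043860), named here after its values were seen, lies between them, 3921 bases from Zm00001d044095. The share of Zm00001d044095 in the summed FPKM of the family was 0.0803 to 0.881% over the 0 h libraries and 2.13 to 9.85% over the 48 h libraries.

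Neither of these neighbours passed the test. Carbonic anhydrase1 averaged 1305 ± 438, 1309 ± 696 and 3209 ± 1377 FPKM in the mutant and 2135 ± 1410.4, 2931 ± 1676 and 2134 ± 323 FPKM in B73 at 0, 24 and 48 h (SD, n = 3 each). Its change at 48 h, averaged over the genotypes, was 0.73 ± 0.46 (limma adjusted p = 0.203), against 4.73 ± 0.44 for Zm00001d044095 (limma adjusted p = 1.38e-06). For carbonic anhydrase3 it was 0.11 ± 0.43 (limma adjusted p = 0.850). Of the 14 other carbonic anhydrase genes tested, 2 rose and 1 fell at 48 h, with a median change of 0.14, and with FPKM rescaled to each library's reads 1 rose and 5 fell, with a median of -0.55. In the deposited scaling the 2 that rose were described as alpha carbonic anhydrases and averaged 3.56 and 1.98 FPKM over the libraries, and the one that fell, a gene model added by the submitters' processing (chromosome 4, 100707654 to 100735513), was described as a mitochondrial gamma carbonic anhydrase-like protein. In this averaged comparison 47.4% of all tested genes passed.

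**Figure D2:**
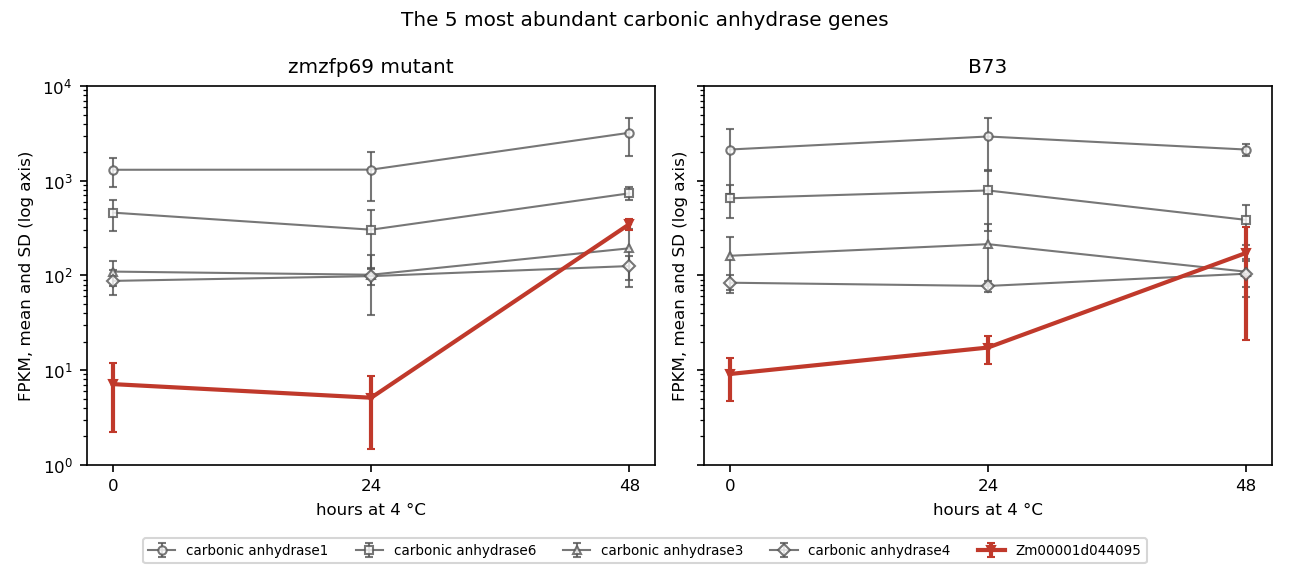
Mean FPKM with SD (log axis, n = 3 each) of the 5 most abundant carbonic anhydrase genes after 0, 24 and 48 h at 4 °C, in the zmzfp69 mutant (left) and B73 (right); Zm00001d044095 is in red. Zm00001d044095 is the lowest of the 5 at 0 and 24 h and overtakes carbonic anhydrase3 and carbonic anhydrase4 at 48 h by its means of 348 FPKM in the mutant and 173 FPKM in B73.

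PEP carboxylase1 (Zm00001d046170, chromosome 9, 68851094 to 68856482, minus strand), the enzyme that fixes bicarbonate in the mesophyll, was the highest of the 6 on average. In the mutant it was at 5310.2, 2119 and 3826 FPKM at 0 h, 6708, 1912 and 4746 FPKM at 24 h, and 10489, 16772 and 6335 FPKM at 48 h. In B73 it was at 2291, 3637 and 7687 FPKM at 0 h, 1519, 7734 and 8267 FPKM at 24 h, and 4795, 4444 and 5329.9 FPKM at 48 h. The 3 mutant libraries at 48 h lay above the 3 at 0 h, while in B73 the 48 h libraries fell inside the range of those at 0 h. The change at 48 h was 1.56 ± 0.74 in the mutant (SE, limma adjusted p = 0.108) and 0.28 ± 0.74 in B73 (limma adjusted p = 0.820), and neither passed. The B73 value turned to -0.29 with FPKM rescaled to each library's reads, to -1.003 with quantile normalization and to -0.13 without B73 0 h replicate 1.

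Pyruvate, orthophosphate dikinase1 (Zm00001d038163, chromosome 6, 150024486 to 150035717, plus strand) regenerates the PEP that PEP carboxylase uses. Its mutant libraries held 4312, 3168 and 3075 FPKM at 0 h, 3980.2, 2264 and 4767 FPKM at 24 h, and 6008, 9897 and 7205 FPKM at 48 h. Its B73 libraries held 2100.3, 3509.9 and 5440.5 FPKM at 0 h, 1964, 4621 and 6394 FPKM at 24 h, and 7834, 3805 and 6449 FPKM at 48 h. At 48 h the mutant libraries were again all above those at 0 h, and in B73 replicate 2 overlapped the 0 h group. The change did not pass in the mutant (1.12 ± 0.57, limma adjusted p = 0.137) or in B73 (0.75 ± 0.57, limma adjusted p = 0.360). The B73 value was -0.07 with quantile normalization.

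NADP malic enzyme3 (Zm00001d000316, on the unplaced contig B73V4_ctg89, 18903 to 24123, plus strand) releases CO2 in the bundle sheath. In the mutant it was at 3333, 1779 and 2993 FPKM at 0 h, 4131, 1319 and 5223 FPKM at 24 h, and 2407, 6113 and 5904 FPKM at 48 h. In B73 it was at 933, 1903 and 4559.8 FPKM at 0 h, 1418, 3570.2 and 5978 FPKM at 24 h, and 5850.02, 2724 and 5263 FPKM at 48 h. Its groups overlapped in every comparison of times and of genotypes. It was the only one of the 6 genes with a smaller 48 h change in the mutant (0.76 ± 0.73, limma adjusted p = 0.437) than in B73 (1.12 ± 0.73, limma adjusted p = 0.283), and the difference between these changes did not pass (-0.36 ± 1.04, limma adjusted p = 0.955). The mutant value turned to -0.09 with FPKM rescaled to each library's reads and to -0.23 with quantile normalization.

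The small subunits are nuclear-encoded parts of Rubisco, which fixes CO2 in the bundle sheath, and the table held 2 genes for them. Both carry a description matched to the same maize protein, so reads of near-identical stretches could be counted for either copy, and the level of each one is uncertain to that extent. Small subunit1 (Zm00001d052595, chromosome 4, 194257728 to 194258862, minus strand) was at 2363, 991 and 2944 FPKM at 0 h, 3652, 938 and 3517 FPKM at 24 h, and 6844, 8845 and 6229 FPKM at 48 h in the mutant. In B73 it was at 1094, 1435 and 5640.1 FPKM at 0 h, 1041, 4188 and 6234 FPKM at 24 h, and 4621, 4693 and 3056 FPKM at 48 h. The mutant libraries at 48 h were above all mutant libraries at 0 and 24 h, and B73 replicate 3 at 0 h was above every B73 library at 48 h.

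Small subunit2 (Zm00001d004894, chromosome 2, 147269761 to 147270804, plus strand) followed the same pattern. Its mutant libraries held 2835, 1308 and 3088 FPKM at 0 h, 4455, 810.3 and 4587 FPKM at 24 h, and 6874, 8993 and 6825 FPKM at 48 h. Its B73 libraries held 1787, 2317 and 7425 FPKM at 0 h, 1918, 5594 and 8459 FPKM at 24 h, and 5372, 4304 and 2826 FPKM at 48 h. In the mutant the 48 h group was separate from both earlier groups, and in B73 it was not.

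The small subunit1 transcript passed at 48 h against 0 h when both genotypes were averaged, with a change of 1.45 ± 0.55 (SE, limma adjusted p = 0.0415), or 2.72-fold. The call did not hold with a pseudocount of 0.1 (limma adjusted p = 0.0544), without the filter on low values (limma adjusted p = 0.164), with quantile normalization (0.59, limma adjusted p = 0.166), with FPKM rescaled to each library's reads (0.73, limma adjusted p = 0.179) or without 9 of the 12 libraries left out in turn. It held without B73 0 h replicate 3, B73 48 h replicate 3 or mutant 0 h replicate 3, and the adjusted p over the 12 libraries left out ranged from 0.0116 to 0.104. Within genotypes the change was 1.92 ± 0.78 in the mutant (limma adjusted p = 0.0652) and 0.97 ± 0.78 in B73 (limma adjusted p = 0.393). For small subunit2 it was 1.73 ± 0.77 in the mutant (limma adjusted p = 0.0877) and 0.36 ± 0.77 in B73 (limma adjusted p = 0.771). Both mutant values passed in a fit of only the 6 mutant libraries at these times, with a limma adjusted p of 0.0287 for small subunit1 and 0.0312 for small subunit2. With FPKM rescaled to each library's reads they were smaller and did not pass. They were then 1.07 for small subunit1 (limma adjusted p = 0.186) and 0.88 for small subunit2 (limma adjusted p = 0.257). The B73 value of small subunit2 turned to -0.21 with FPKM rescaled to each library's reads, to -0.46 with quantile normalization and to -0.04 without B73 0 h replicate 1.

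**Figure D3:**
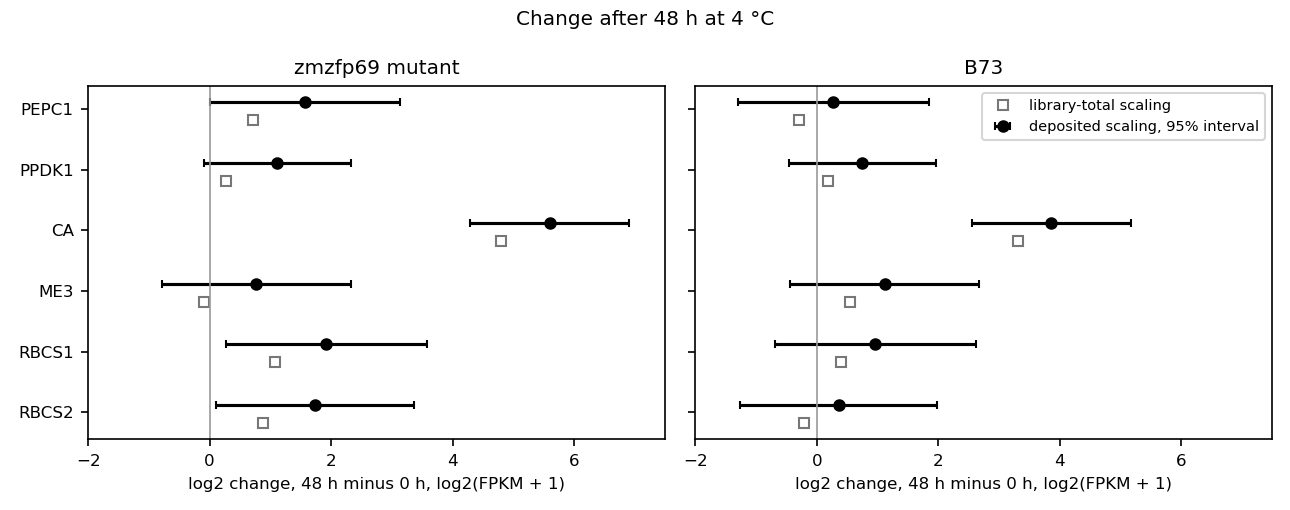
Log2 change at 48 h minus 0 h on the log2(FPKM + 1) scale for each of the 6 genes, in the zmzfp69 mutant (left) and B73 (right); black points are the deposited scaling with its 95% interval before adjustment, and open squares the same change with FPKM rescaled to each library's reads. The carbonic anhydrase (CA) is far from 0 at 5.60 in the mutant and 3.86 in B73, and the intervals of the other 5 genes in B73 all include 0. In the mutant the intervals of small subunit1 (0.27 to 3.58) and small subunit2 (0.11 to 3.36) lie above 0, though neither change passed after adjustment. Those of PEP carboxylase1, pyruvate, orthophosphate dikinase1 and NADP malic enzyme3 include 0.

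Together, 5 of the 6 genes had all 48 h libraries above all 0 h libraries in the mutant, where 25.0% of all tested genes did, and 1 of 6 in B73, where 19.9% did. At 48 h against 24 h the counts were 4 of 6 in the mutant, with 19.7% of all tested genes, and 1 of 6 in B73, with 10.8%. These mutant counts depended on the scaling. With FPKM rescaled to each library's reads, PEP carboxylase1 overlapped between 0 and 48 h (highest 6747 at 0 h, lowest 4310 at 48 h). So did pyruvate, orthophosphate dikinase1 (5479 and 4560). Small subunit2 then overlapped between 24 and 48 h (highest 4817 at 24 h, lowest 4644 at 48 h). Averaged over genotypes at 48 h, the changes of PEP carboxylase1 (0.92 ± 0.52, limma adjusted p = 0.158), pyruvate, orthophosphate dikinase1 (0.94 ± 0.40, limma adjusted p = 0.0677), NADP malic enzyme3 (0.94 ± 0.52, limma adjusted p = 0.145) and small subunit2 (1.05 ± 0.54, limma adjusted p = 0.122) did not pass. That of PEP carboxylase1 turned to -0.28 with quantile normalization. Of 20 alternative settings, pyruvate, orthophosphate dikinase1 passed in 4, small subunit2 in 2, NADP malic enzyme3 in 1 and PEP carboxylase1 in 0. Array weights were among these settings, with a limma adjusted p of 0.0178 for the dikinase, 0.0237 for small subunit2 and 0.0407 for NADP malic enzyme3. At 24 h against 0 h none of the 6 genes passed in limma in either genotype (0 at an unadjusted p under 0.05, 0 in limma-voom), while 9.58% of all tested genes did in the mutant and 9.35% in B73. For the 5 abundant genes these 24 h changes lay between 0.01 and 0.27 in the mutant and between 0.18 and 0.63 in B73. With array weights 5 of the 6 genes passed at 24 h in B73, where 12553 of all tested genes did.

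No difference between the zmzfp69 mutant and B73 passed the test in any of the 6 genes. There was none in limma at 0, 24 or 48 h or averaged over the times, and none in limma-voom. At an unadjusted p under 0.05 there were 0 of 6 at 0 h, 1 at 24 h, 1 at 48 h and 0 in the average, and the carbonic anhydrase was the gene in both cases. Of all tested genes, 0.212% passed at 0 h, 0.411% at 24 h, 0.333% at 48 h and 0.653% in the average. For the 5 abundant genes the mutant minus B73 difference lay between -0.47 and 0.38 at 0 h, between -0.82 and -0.03 at 24 h and between 0.02 and 1.10 at 48 h. A p that misses the threshold does not show equal levels.

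In the deposited scaling, all 3 mutant libraries at 48 h lay above all 3 B73 libraries for 3 of the 6 genes. Of all tested genes, 8.09% did. PEP carboxylase1 averaged 11199 ± 5254 FPKM in the mutant and 4856 ± 446 FPKM in B73 (SD, n = 3 each), a difference of 1.10 ± 0.74 (SE, limma adjusted p = 0.526) with a 95% interval of -0.47 to 2.66. Small subunit1 averaged 7306 ± 1368 FPKM in the mutant and 4123 ± 925 FPKM in B73 (SD, n = 3 each), a difference of 0.84 ± 0.78 (SE, limma adjusted p = 0.667). Small subunit2 averaged 7564 ± 1238 FPKM in the mutant and 4167 ± 1278 FPKM in B73 (SD, n = 3 each), a difference of 0.90 ± 0.77 (SE, limma adjusted p = 0.630). None of the 3 passed, in a fit that takes its spread from all 6 groups. With FPKM rescaled to each library's reads the differences were 0.78 for PEP carboxylase1, 0.52 for small subunit1 and 0.58 for small subunit2. The groups of PEP carboxylase1 then overlapped (lowest mutant 4310, highest B73 5129), as did those of small subunit1 (4238 and 4790). Those of small subunit2 stayed apart (4644 and 4393). The test of whether the 48 h change differed between genotypes gave 1.29 ± 1.04 for PEP carboxylase1 (limma adjusted p = 0.794), 0.96 ± 1.10 for small subunit1 (limma adjusted p = 0.869) and 1.37 ± 1.08 for small subunit2 (limma adjusted p = 0.788). In that test 0.00864% of all genes passed at 48 h and 0.00432% at 24 h, and 0 of the 6 at either time (0 at an unadjusted p under 0.05, 0 in limma-voom).

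Among markers of other tissues, 1 gene of the list for meristem and dividing cells differed widely between genotypes at 48 h. Summed transcripts of the 23 genes named for meristem and dividing cells, of which 9 were tested and 4 were at 0 in all libraries, ran from 578 to 2268 FPKM in the mutant and from 139 to 195 FPKM in B73 at that time. That sum rested on knotted1 induced1, with a mean of 1504 FPKM in the mutant and 37.6 FPKM in B73, the 1 gene of the 9 that passed between genotypes in limma. With FPKM rescaled to each library's reads 0 of the 9 passed. Without it the list summed to 166 to 172 FPKM in the mutant and 109 to 164 FPKM in B73. At 0 h the list ran from 825 to 975 FPKM in the mutant and from 335 to 845 FPKM in B73. At 48 h, 83 genes named for the epidermis summed to 545 to 3552 FPKM in the mutant and 452 to 728 FPKM in B73, with 13 of them at 0 in all libraries. The 36 genes named for vascular tissue summed to 1226 to 2061 FPKM in the mutant and 1262 to 2259 FPKM in B73, with 4 at 0 in all libraries. Of the 21 vascular genes tested, 1 passed between genotypes at 48 h in limma, higher in the mutant, and 0 passed with FPKM rescaled to each library's reads. Of the 47 epidermis genes tested, 0 passed. Among all tested genes 0.333% passed. The part of these lists in the values of the 6 genes was not tested.

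Replicates of a group differed widely in the 5 abundant genes, and often in the same libraries. B73 replicate 1 at 24 h was the lowest of its group for 6 of the 6 genes, and so was mutant replicate 2 at 24 h. Mutant replicate 2 at 48 h was the highest of its group for 6 of 6. The highest over lowest library of a group reached 5.99-fold for small subunit1 in B73 at 24 h and 5.66-fold for small subunit2 in the mutant at 24 h. It was as small as 1.199-fold for PEP carboxylase1 in B73 at 48 h. B73 replicate 3 at 0 h was the highest of its group for 5 of 6. Summed chlorophyll a-b binding transcripts stood the same way in these libraries. They were lowest of the group in B73 replicate 1 at 24 h (3007 FPKM) and in mutant replicate 2 at 24 h (9109 FPKM), and highest of the group in mutant replicate 2 at 48 h (18772 FPKM) and in B73 replicate 3 at 0 h (45308 FPKM). In B73 at 48 h they did not. There replicate 1 was highest for 4 of 6 genes but had the lowest sum (9464 FPKM). Replicate 2 was lowest for 3 of 6 but had the highest sum (21576 FPKM). The part of green leaf tissue in the values of the 6 genes was not tested.

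Ordered by mean, PEP carboxylase1, pyruvate, orthophosphate dikinase1, NADP malic enzyme3, small subunit1 and small subunit2 were all highest in the mutant at 48 h. B73 at 24 h came next for PEP carboxylase1 (5840.1 ± 3752 FPKM) and small subunit2 (5324 ± 3279 FPKM). B73 at 48 h came next for pyruvate, orthophosphate dikinase1 (6029.7 ± 2047 FPKM), NADP malic enzyme3 (4612 ± 1662 FPKM) and small subunit1 (4123 ± 925 FPKM; SD, n = 3 each). In the deposited scaling, every one of these second groups overlapped the mutant at 48 h except that of small subunit1. Lower neighbours overlapped throughout.

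Ratios between genes of one library do not depend on how libraries are scaled. Small subunit2 over small subunit1 averaged 1.19 ± 0.136, 1.13 ± 0.234 and 1.04 ± 0.0496 in the mutant at 0, 24 and 48 h, and 1.52 ± 0.178, 1.51 ± 0.286 and 1.00 ± 0.139 in B73 (SD, n = 3 each). At 48 h the B73 ratio ran from 0.917 to 1.16, below all B73 libraries at 0 h, which ran from 1.32 to 1.63. In the mutant the 48 h ratios, 1.00 to 1.10, lay within those at 0 h, 1.05 to 1.32, or below them. At 0 h the highest mutant ratio, 1.3201, was above the lowest of B73, 1.3164, so those groups overlapped. These ratios are given as a description with no test.

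PEP carboxylase1 over NADP malic enzyme3 sets a mesophyll transcript against a bundle sheath one. It averaged 1.35 ± 0.212, 1.33 ± 0.373 and 2.72 ± 1.64 in the mutant at 0, 24 and 48 h, and 2.02 ± 0.396, 1.54 ± 0.564 and 1.15 ± 0.424 in B73 (SD, n = 3 each). The B73 groups at 48 h and 0 h did not overlap, with a highest ratio of 1.63 at 48 h and a lowest of 1.69 at 0 h. The mutant at 48 h was the widest group, from 1.07 to 4.36, and its highest ratio came from replicate 1, the library with the lowest NADP malic enzyme3 of that group. PEP carboxylase1 over the sum of both small subunits, also bundle sheath transcripts, did not follow this pattern. Its means were 0.859, 0.836 and 0.730 in the mutant and 0.784, 0.622 and 0.627 in B73 at 0, 24 and 48 h. The B73 groups at 0 h (0.588 to 0.969) and 48 h (0.480 to 0.906) overlapped in that ratio.

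**Figure D4:**
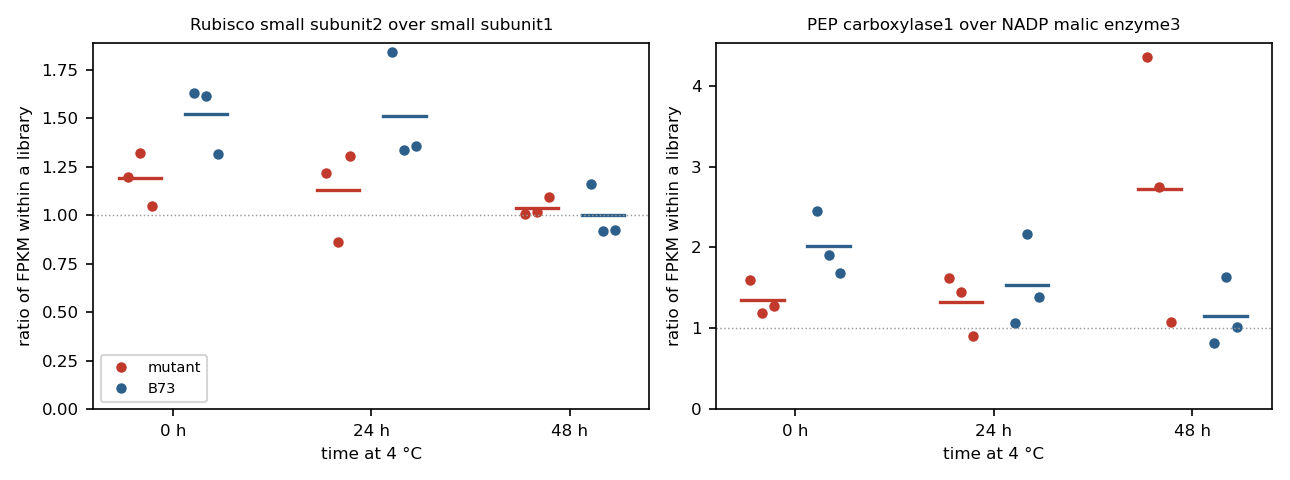
Ratio of FPKM within each library for Rubisco small subunit2 over small subunit1 (left) and PEP carboxylase1 over NADP malic enzyme3 (right), after 0, 24 and 48 h at 4 °C, with zmzfp69 mutant libraries in red, B73 libraries in blue, a line at each group mean and a dotted line at a ratio of 1. The small subunit ratios of B73 at 48 h, 0.917 to 1.16, lie below those of B73 at 0 h, 1.32 to 1.63, and the mutant at 48 h spreads from 1.07 to 4.36 in the right panel.

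Other isoforms were minor for 3 of the enzymes, unlike for carbonic anhydrase. PEP carboxylase1 made up 87.9 to 98.0% of the summed FPKM of its family of 10 genes, pyruvate, orthophosphate dikinase1 95.9 to 99.5% of its pair, and NADP malic enzyme3 87.5 to 99.2% of its 13 genes. The most abundant other PEP carboxylase gene (Zm00001d024980, chromosome 10, 97827268 to 97828533) averaged 235 ± 143 FPKM in the mutant and 130 ± 67.3 FPKM in B73 at 48 h (SD, n = 3 each). Its change at 48 h, averaged over genotypes, was 1.24 ± 0.55 (limma adjusted p = 0.0734). Pyruvate, orthophosphate dikinase2 (Zm00001d010321, chromosome 8, 109459050 to 109469711) rose by 2.04 ± 0.61 (limma adjusted p = 0.0118), or by 1.31 with quantile normalization, where it did not pass (limma adjusted p = 0.0708). NADP malic enzyme6 (Zm00001d043601, chromosome 3, 204885503 to 204890587) rose by 1.12 ± 0.33 (limma adjusted p = 0.0116). That call was lost with FPKM rescaled to each library's reads (0.42, limma adjusted p = 0.328) and with quantile normalization (0.32, limma adjusted p = 0.447).

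Around the 6 genes, 114 other genes of C4 photosynthesis, its regulators and carriers, Rubisco and its assembly, and the Calvin cycle were tested. At 48 h against 0 h, averaged over genotypes, 28 of them rose and 9 fell, with a median change of 0.26, against 23.5% of all tested genes that rose, 24.0% that fell and a median of -0.05. With FPKM rescaled to each library's reads the balance turned: 13 of the 114 rose and 30 fell, with a median change of -0.29, against 14.0% of all tested genes that rose, 44.0% that fell and a median of -0.55. The rescaled counts of the single lists below stand against these same shares. Between mutant and B73, averaged over times, 0 of the 114 passed in limma (4 at an unadjusted p under 0.05, 0 in limma-voom). Of 41 other genes of C4 cycle enzymes, 14 rose and 2 fell at 48 h, and with FPKM rescaled to each library's reads 7 rose and 9 fell. The largest rise was that of a second chloroplastic NADP-dependent malic enzyme gene (Zm00001d037693, chromosome 6, 134212972 to 134216929), by 3.37 ± 0.40 (limma adjusted p = 1.03e-05). It averaged 105 ± 53.9 FPKM in the mutant and 23.6 ± 11.4 FPKM in B73 at 48 h, against 2.22 ± 0.853 FPKM in the mutant and 5.38 ± 1.03 FPKM in B73 at 0 h (SD, n = 3 each). Alanine aminotransferase5, an enzyme that interconverts alanine and pyruvate, rose by 2.59 ± 0.50 (limma adjusted p = 0.00063). PEP carboxylase3 fell by 0.78 (SE 0.22, limma adjusted p = 0.00959) and the gamma carbonic anhydrase-like gene by 0.67 (SE 0.19, limma adjusted p = 0.00988). Group means were 1.41 to 4.99 FPKM for PEP carboxylase3 and 14.1 to 31.2 FPKM for the gamma carbonic anhydrase-like gene.

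Of 6 regulators of C4 enzymes, 4 rose and 1 fell at 48 h, and 3 rose and 2 fell with FPKM rescaled to each library's reads. PEP carboxylase kinases phosphorylate PEP carboxylase, which in C4 leaves lowers its inhibition by malate. PEP carboxylase kinase2 (Zm00001d051156) was at 765, 920.5 and 877 FPKM in the mutant and 2508, 306 and 127 FPKM in B73 at 48 h. At 0 h it was at 2.64, 2.73 and 4.72 FPKM in the mutant and 1.39, 1.31 and 0.961 FPKM in B73. Averaged over genotypes it rose by 6.86 ± 0.69 at 24 h (limma adjusted p = 1.32e-05) and by 7.68 ± 0.69 at 48 h (limma adjusted p = 1.17e-06). Kinase3 (Zm00001d017270) rose by 6.66 ± 0.65 at 24 h (limma adjusted p = 1.04e-05). At that time, averaged over genotypes, 23.6% of all tested genes passed and none of the 6 genes did (0 at an unadjusted p under 0.05, 0 in limma-voom). Dikinase regulatory proteins switch pyruvate, orthophosphate dikinase off and on in dark and light, and 2 genes for them were tested. The more abundant, PDK regulatory protein1 (Zm00001d006520), named here after its values were seen, averaged 321 FPKM over the libraries and changed by -0.05 ± 0.30 (limma adjusted p = 0.901). With FPKM rescaled to each library's reads its change was -0.76 and passed (limma adjusted p = 0.0304). The other (Zm00001d021672), with a mean of 39.3 FPKM, fell by 0.92 (SE 0.35, limma adjusted p = 0.0399), a call that was lost without a filter on low values (limma adjusted p = 0.0566) and without B73 0 h replicate 3, B73 48 h replicate 2 or mutant 0 h replicate 1, 0 h replicate 3 or 48 h replicate 1 (limma adjusted p from 0.0562 to 0.108).

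Of 16 carriers of C4 metabolites, 2 rose and 1 fell, and with FPKM rescaled to each library's reads 1 rose and 3 fell. A PEP/phosphate translocator gene (Zm00001d039674, chromosome 3, 11575059 to 11577604), of the family that carries PEP across the chloroplast envelope, rose by 3.66 ± 0.53 (limma adjusted p = 6.1e-05). It averaged 305 ± 74.4 FPKM in the mutant and 187 ± 112 FPKM in B73 at 48 h, against 20.5 ± 14.2 FPKM in the mutant and 19.7 ± 16.2 FPKM in B73 at 0 h (SD, n = 3 each). A triose phosphate translocator gene (Zm00001d016969) rose by 0.94 ± 0.23 (limma adjusted p = 0.0033) and another PEP/phosphate translocator gene (Zm00001d037659) fell by 0.86 (SE 0.25, limma adjusted p = 0.00925), both below 4 FPKM in every group mean. The rise of Zm00001d016969 was 0.58 and did not pass after that rescaling (limma adjusted p = 0.0597).

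Of 19 genes of Rubisco and its assembly, 4 rose and 3 fell, and with FPKM rescaled to each library's reads 1 rose and 10 fell. The RbcX protein 2 gene (Zm00001d013033), for a chaperone of Rubisco assembly, rose by 3.09 ± 0.47 (limma adjusted p = 9.33e-05). Rubisco accumulation factor2 (Zm00001d034715), for another assembly factor, fell by 1.45 (SE 0.43, limma adjusted p = 0.0113). A gene on an unplaced contig described as a Rubisco large chain (Zm00001d000279) rose by 0.90 ± 0.25 (limma adjusted p = 0.00809) with group means of 0.184 to 2.01 FPKM, and its change was 0.64 after that rescaling (limma adjusted p = 0.0546). A gene described as a fragment of the large subunit-binding chaperonin alpha subunit (Zm00001d034919) fell by 0.97 (SE 0.31, limma adjusted p = 0.0174). Rubisco activase2 (Zm00001d048593), which restores the activity of Rubisco, changed by -0.16 ± 0.45 and did not pass (limma adjusted p = 0.791).

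Of 32 Calvin cycle genes, 4 rose and 2 fell, and with FPKM rescaled to each library's reads 1 rose and 6 fell. A ribose-5-phosphate isomerase gene (Zm00001d052482) rose by 1.98 ± 0.34 at 24 h (limma adjusted p = 0.000882) and a class 1 fructose-1,6-bisphosphatase gene (Zm00001d046942) by 1.76 ± 0.56 at 48 h (limma adjusted p = 0.0180). The bisphosphatase call was lost after that rescaling (1.07, limma adjusted p = 0.0668), with quantile normalization (1.15, limma adjusted p = 0.103), without B73 0 h replicate 1 (1.47, limma adjusted p = 0.0519) and without mutant 0 h replicate 2 (1.44, limma adjusted p = 0.0510). CP12-1 is a small protein that holds Calvin cycle enzymes in an inactive complex in the dark. A gene described as CP12-1 (Zm00001d028880), with a mean of 142 FPKM, fell by 1.78 (SE 0.30, limma adjusted p = 0.000216). Another gene of that description (Zm00001d044925), named here after its values were seen, was more abundant, with a mean of 330 FPKM. It changed by 0.07 and did not pass (limma adjusted p = 0.894). An aldolase-lysine methyltransferase gene (Zm00001d036004) fell by 0.52 (SE 0.19, limma adjusted p = 0.0320). That call was lost with quantile normalization (-0.36, limma adjusted p = 0.158) and without B73 0 h replicate 1, 0 h replicate 3, 48 h replicate 1 or 48 h replicate 2 or mutant 0 h replicate 1, 48 h replicate 1 or 48 h replicate 3 (limma adjusted p from 0.0531 to 0.0859). Phosphoribulokinase (Zm00001d017711), a bundle sheath marker here, changed by 0.94 ± 0.58 (limma adjusted p = 0.197), and the mesophyll marker NADP-malate dehydrogenase6 (Zm00001d031899) by 0.57 ± 0.36 (limma adjusted p = 0.205).

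**Figure D5:**
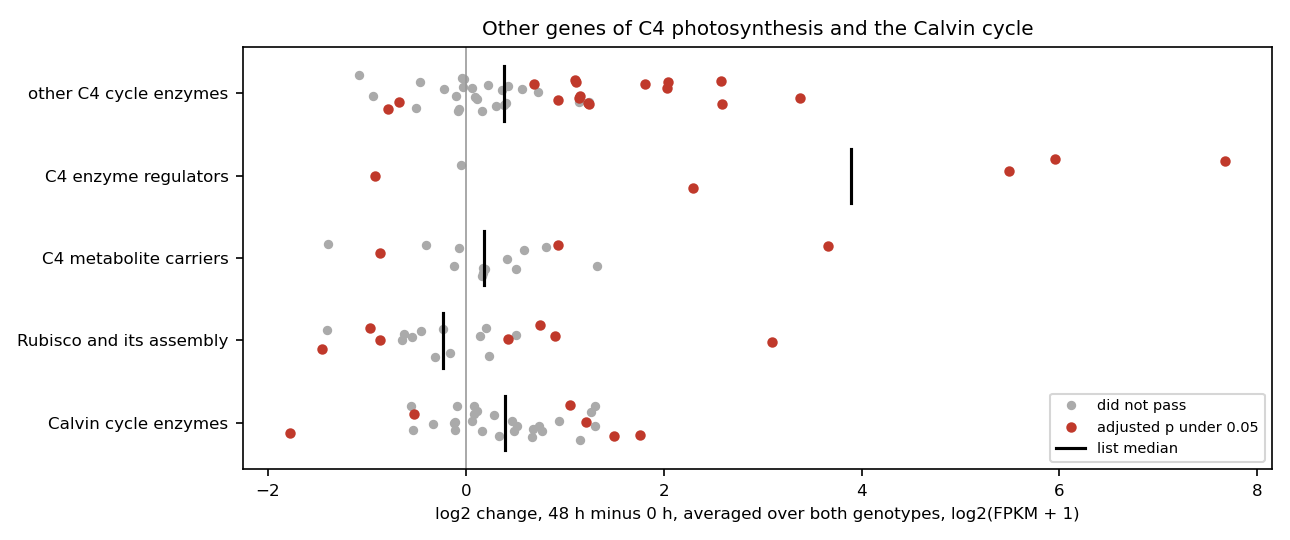
Log2 change at 48 h minus 0 h, averaged over both genotypes, on the log2(FPKM + 1) scale, for the 114 other genes in 5 lists; each point is a gene, red where its adjusted p was under 0.05, and a bar marks the median of each list. Regulators of C4 enzymes reach 7.68, and the medians of the other 4 lists lie between -0.23 and 0.40.

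As a description over the 18 libraries, which share their times, scaling and depth, levels of the 5 abundant genes ran together. On log2(FPKM + 1), Pearson's r between them ran from 0.759 (PEP carboxylase1 and NADP malic enzyme3) to 0.959 (the small subunits). Between the carbonic anhydrase and these genes it ran from 0.409 (NADP malic enzyme3) to 0.680 (pyruvate, orthophosphate dikinase1). The named genes most like the carbonic anhydrase were a 14-3-3-like protein GF14-C gene (r = 0.977), a RING1-like E3 ubiquitin ligase gene (r = 0.964) and violaxanthin de-epoxidase3 (r = 0.962). For PEP carboxylase1 they were adenylosuccinate synthetase 2 (r = 0.966), the Clp protease adapter ClpF (r = 0.956) and subunit N of the chloroplast NAD(P)H-quinone oxidoreductase (r = 0.956). Subunit N was also the most like small subunit1 (r = 0.978). It was followed by sedoheptulose bisphosphatase1 (r = 0.974) and the chloroplast stem-loop binding protein of 41 kDa a (r = 0.970). For small subunit2 they were a plastidal glycolate/glycerate translocator gene (r = 0.979), subunit N (r = 0.964) and CURVATURE THYLAKOID 1D (r = 0.958). Subunit M of the same complex was the most like pyruvate, orthophosphate dikinase1 (r = 0.964). A lipase gene (r = 0.950) and a gene described as an uncharacterized transposon TX1 protein (r = 0.947) came next. For NADP malic enzyme3 they were a chloroplastic fructose-1,6-bisphosphatase gene (r = 0.960), the stem-loop binding protein of 41 kDa b (r = 0.950) and phosphoglucan, water dikinase (r = 0.945).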

How the data were processed

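RNA with poly-A tails went into directional (dUTP) libraries, per the labels' protocols. The authors deposited 1 table of FPKM values with names, positions and lengths of genes. Tools named in the submitters' processing notes are HISAT2 2.0.5, fastp, DESeq2 1.20.0 and featureCounts 1.5.0-p3. Not given in the sources used here are the build of the genome and the strand and multiple-mapping settings of the counting, and positions are those of the table. The deposited values were whole multiples of 1 read per gene length (100% of non-zero values in each library within 0.01 reads), so reads and the scaling total were recovered from these steps.

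Groups, times and replicate numbers came from the titles. The description field of some mutant libraries at 24 and 48 h names 0 h and was not used. A gene was tested if 3 or more libraries reached 1 FPKM (23141 genes). The values were fitted on log2(FPKM + 1), which understates the change of low genes, as 6 group means over all 18 libraries in limma 3.58.1 (R 4.3.3, eBayes with trend, 12 residual and 3.54 prior degrees of freedom). The fit was tested on simulated counts without shifts of whole libraries beyond the scaling total, which does not cover the uneven replicates here. It gave 14 comparisons: genotypes at each time and averaged, pairs of times within a genotype, 24 h and 48 h against 0 h averaged over genotypes, and interactions at 24 and 48 h. The settings tried besides were limma-voom on the recovered reads (10613 genes called at 48 h against 0 h averaged over genotypes, against 10978), array weights, which give less weight to libraries that deviate from their group, only the compared libraries, quantile normalization, scaling to each library's reads, no filter, a pseudocount of 0.1, a block for the replicate number, and each library left out.

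Besides the 6 genes, the text names the 2 largest rises and 2 largest falls among genes that passed in each pathway list, the most abundant other gene of each enzyme family, the 3 named genes most alike each of the 6, and marker genes. The members and lists were chosen with earlier results of these data known. The RefSeq gene table matched none of the 6 (0 matches), so names are those of the deposited table.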

Additional observations from a re-analysis of the deposited data

How the results depend on the processing

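CA below is the carbonic anhydrase Zm00001d044095, PEPC1, PPDK1, ME3, RBCS1 and RBCS2 the other genes in the order of the report. No alternative called any of the 6 genes between genotypes or in an interaction, and the 48 h against 0 h calls of CA in the mutant (log2 changes of 4.80 to 6.06), in B73 (3.18 to 4.36) and averaged (4.06 to 4.98) held in all settings run. The number of the 6 genes called at 48 h against 0 h in the mutant was 1, and 3 with array weights or only the compared libraries. At 24 h against 0 h it was 0, and with array weights 5 in B73 and 2 averaged over genotypes. At 48 h against 24 h in B73 it was 1, 0 with only the compared libraries (0 of all genes then passed, 3328 at an unadjusted p under 0.05) and 0 to 1 with libraries left out. At 48 h against 0 h averaged it was 2, 1 with a pseudocount of 0.1, no filter, quantile normalization or library-total scaling, 5 with array weights, and 1 to 4 with libraries left out. With only the compared libraries PPDK1 passed there besides CA and RBCS1 (limma adjusted p = 0.0442 for PPDK1). Changes that turned sign, none of them called, were those of PEPC1 in B73 at 48 h (-1.003 with quantile normalization, -0.29 with library-total scaling, -0.13 to 0.75 with libraries left out) and averaged (-0.28, quantile), PPDK1 in B73 at 48 h (-0.0717, quantile), ME3 in the mutant at 48 h (-0.23, quantile; -0.0902, library-total), RBCS2 in B73 at 48 h (-0.46, quantile; -0.21, library-total; -0.0423 to 0.98 with libraries left out) and CA in the mutant at 24 h (0.19 with array weights, -0.88 to 0.10 with libraries left out). The cause was not tested. Replicate numbers did not pair the samples (0 of 15 pairs of groups had all same-number correlations above 0.1), and with the number as a block the counts were unchanged at 1 of the 6 called in the mutant and 1 in B73 at 48 h against 0 h, and 2 averaged over genotypes. With array weights, counts over all genes moved to 12553 from 2164 at 24 h against 0 h in B73, to 7852 from 2216 in the mutant, to 8870 from 5374 at 48 h against 0 h in B73, to 3612 from 49 between genotypes at 0 h, to 1263 from 95 at 24 h and to 579 from 151 averaged. Only the compared libraries gave 587 at 24 h against 0 h and 1682 (from 5198) at 48 h against 24 h in the mutant, and 18, 1 and 4 between genotypes at 0, 24 and 48 h (from 49, 95 and 77). With libraries left out, the counts between genotypes ran from 25 to 54 at 0 h, from 24 to 208 at 24 h and from 36 to 183 at 48 h. With 3 pooled libraries a group, replicates of the 5 abundant genes differed by up to 5.99-fold, which limits the precision of their changes.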
